A study of Arabidopsis thaliana with 8 samples.

Results

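The comparison described here is that of phyAB with phyB, mutants of Arabidopsis thaliana in Col-0 that lack phytochromes A and B or phytochrome B alone, both after 1 h of red light. It was drawn from 4 of the 8 libraries of the series, 2 for each mutant, over all genes with enough reads to test. Since both mutants lack phyB, what distinguishes them by label is the added loss of phyA. Seeds were kept in the cold for 3 days, given 12 h of white light to start germination and grown in darkness for 5 days. Seedlings of phyB, phyAB and wild type (WT red) then received red light for 1 h at a fluence rate of 50 µmol per square metre and second, and a further wild-type group stayed in darkness (WT dark). The alleles of the mutants, the number of seedlings in a library and whether the replicates were separate batches of seedlings are absent from the labels, so p-values measure only the spread between these libraries. Dark mutant seedlings were not analysed here, so a difference between the mutants in red light cannot be told apart from one that was there before the light.

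Phytochromes are photoreceptors that red light switches into an active form, which enters the nucleus, removes PIF transcription factors and holds back the COP1/SPA ubiquitin ligase, so that HY5 and related factors accumulate. phyA is abundant in dark-grown seedlings and is broken down quickly in light, and it is known above all for responses to far-red light and to very little light. phyB is light-stable and is the main receptor of seedlings under lasting red light. The first hour of light starts greening: genes for antenna proteins, photosystems and chlorophyll synthesis are switched on, and genes of the dark programme, such as PORA, are switched off.

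Depth was 15926547 and 22116924 reads in the phyB libraries and 21699222 and 16619502 in the phyAB libraries. A gene with 0 reads in one of the 8 libraries may have had up to 3, which is 0.136 to 0.188 CPM (reads scaled to the size of the library), and such limits cover counting error only. The replicates lay close together: the variance between them was on average 1.34 to 1.47 times that of counting alone in the 4 groups. On the second principal component of log2 CPM, which held 24.9% of the variance, the phyAB libraries stood at -46.9 and -48.3 and the other 6 between 5.65 and 27.0. Plastid transcripts took 0.278% to 0.279% of the phyB reads and 0.252% to 0.253% of the phyAB reads. Markers of root, of the stomatal lineage and shoot apex, and of leaf mesophyll (LHCB3, RCA, RBCS1A) were all detected, and with RNA from whole seedlings fewer cells of a type and less RNA per cell cannot be told apart.

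PHYA was examined first, as the gene whose loss separates the mutants. Its transcript stood at 703 and 702 CPM in phyB and at 124 and 123 CPM in phyAB, against 834 and 828 in WT dark and 463 and 470 in WT red. The phyAB libraries were thus the lowest of all 8 and no group overlapped another. The fall from phyB to phyAB was 2.51 ± 0.02 on the log2 scale (SE of the fit), or 5.69-fold, with an adjusted p of 6.4e-126. Unless stated otherwise, adjusted p-values come from edgeR's quasi-likelihood test with Benjamini-Hochberg adjustment over 20716 genes, 2 libraries a group. PHYB, mutated in both lines, was read at 62.3 and 64.3 CPM in phyB, 52.9 and 50.4 in phyAB, and 95.2 to 96.0 in WT red. It was called lower in phyAB by 0.29 ± 0.05 (adjusted p = 1.41e-07). Transcript remained in both lines, and it does not show how much receptor protein was made.

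The other phytochromes moved little: PHYE was lower by 0.44 ± 0.09 (adjusted p = 9.69e-06) and PHYC by 0.20 ± 0.06 (0.00203), while PHYD, at -0.21 ± 0.11, was not called (0.114). Of 8 genes for the nuclear import and early signalling of phyA, 4 were lower and 2 higher. Over all tested genes 24.1% were called lower and 26.1% higher. PKS1, a phytochrome-binding protein, was at 65.7 and 71.0 CPM in phyB and at 35.7 and 31.2 in phyAB, a difference of -1.03 ± 0.06. FHY1, which carries phyA into the nucleus, was higher at 29.3 and 28.9 CPM against 22.3 and 21.4 in phyB (0.42 ± 0.08), and PAT1, a GRAS protein of phyA signalling, was higher by 0.32 ± 0.04. FHY3 and FAR1, the related activators of FHY1 transcription, were lower by 0.29 ± 0.04 and 0.39 ± 0.07. The F-box gene EID1 was lower by 0.28 ± 0.07, with adjusted p = 0.0516 once phyB replicate 1 was left out. When a variation of 10% between libraries was assumed, 1 phytochrome gene and 1 of the 8 import genes were called.

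Differences between the mutants were many and mostly small. Of 20716 genes, 10392 were called at an adjusted p below 0.05 (50.2%), 5404 of them higher in phyAB (26.1%) and 4988 lower (24.1%). The counts of called members in every gene list are to be read against these shares. A change of at least 2-fold was found for 1010 higher (4.88%) and 901 lower genes (4.35%), and of at least 4-fold for 270 and 114. By contrast, 3415 of the called genes changed by less than 1.25-fold. The variation between replicates beyond counting error was estimated at only 1.59%, a common value for all genes and all 8 libraries, so small differences pass the test. When the libraries of each mutant were summed and a variation of 10% was assumed (CV 0.1), 2050 genes were higher and 1906 lower, with 990 and 900 past 2-fold. The median change over all tested genes was 0.007.

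The 2-fold differences were set beside the light response of the wild type, which rests on other libraries (WT red against WT dark). In wild type red light changed 46.8% of the tested genes, 7.06% upward and 2.67% downward by 2-fold or more. Of the 1463 genes induced at least 2-fold, 989 (67.6%) were lower in phyAB than in phyB, 605 of them by 2-fold or more, and 211 (14.4%) were higher. Of 554 genes repressed at least 2-fold, 341 (61.6%) were higher in phyAB, 220 of them by 2-fold or more, and 59 (10.6%) were lower. The median change against WT dark of the induced genes was 1.64 for WT red, 1.71 for phyB and 1.05 for phyAB. For the repressed genes these medians were -1.43, -1.10 and -0.32. Across the 20716 genes, which are not independent replicates, the change from phyB to phyAB and the wild-type light response correlated at r = -0.401 (Spearman's rho = -0.356), given as a description.

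**Figure D1:**
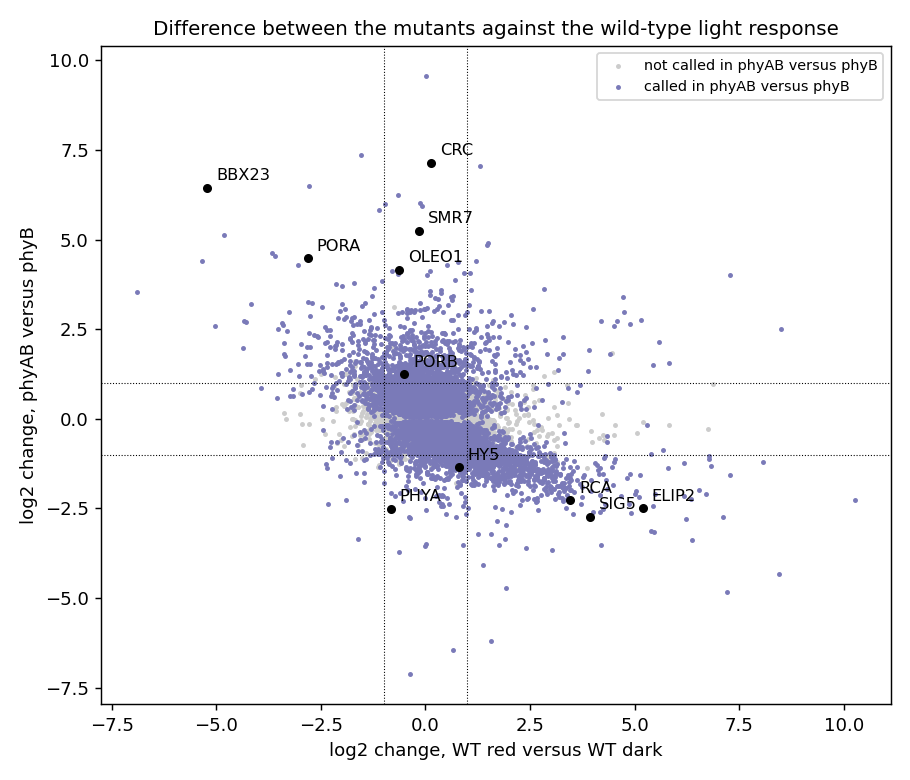
Each point is one of 20716 tested genes, with the log2 change from WT dark to WT red on the horizontal axis and the log2 change from phyB to phyAB on the vertical axis; dotted lines mark 2-fold and coloured points were called at an adjusted p below 0.05. Genes induced in the wild type lie mostly below 0 on the vertical axis (989 of 1463 called lower), while among the high points CRC and SMR7 lie near 0 on the horizontal axis and BBX23 and PORA, repressed in the wild type, lie to its left.

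The falls and the rises differed in this respect. Of the 901 genes at least 2-fold lower in phyAB, 605 (67.1%) were red-induced in wild type and 129 (14.3%) showed no called light response. Of the 1010 at least 2-fold higher, 220 (21.8%) were red-repressed, 93 (9.21%) were red-induced and 450 (44.6%) showed no called light response. For comparison, 11027 of the 20716 tested genes had no called light response. Of these, 4.08% were at least 2-fold higher and 1.17% at least 2-fold lower in phyAB, beside 4.88% and 4.35% of all tested genes. With changes of any size, 20.7% of them were called higher and 14.4% lower, beside 26.1% and 24.1%.

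Genes of the photosynthetic machinery were lower throughout. All 23 genes for light-harvesting proteins and early light-induced proteins (ELIPs) fell in phyAB, 20 by 2-fold or more, with a median of -1.63. All 32 nuclear genes for photosystem subunits, electron carriers, ATP synthase and Rubisco were lower as well, 31 at least 2-fold, with a median of -1.47. Over all tested genes 24.1% were called lower and the median was 0.007. Reads of LHCB1 and RBCS genes may be split between near-identical copies in a way set by the authors' counting.

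LHCA1, an antenna protein of photosystem I, was at 1295 and 1322 CPM in phyB, 251 and 249 in phyAB, 1011 and 1012 in WT red, and 35.0 and 34.4 in WT dark. It thus lay in phyAB above darkness but far below both other red-lit groups, and the difference between the mutants was -2.39 ± 0.01 (5.24-fold, adjusted p = 9.87e-87). RCA, the activase that keeps Rubisco working, was at 1708 and 1719 CPM in phyB and at 353 and 363 in phyAB, with 109 to 115 in WT dark. Its difference was -2.26 ± 0.01 (4.79-fold, adjusted p = 2.04e-175). LHCB1.4, an antenna protein of photosystem II, showed the widest gap of the antenna genes, with 666 and 661 CPM in phyB against 93.2 and 98.0 in phyAB (6.96-fold). At the other end, LHCB4.3 hardly responded to light and was lower by only 0.25 ± 0.10 (adjusted p = 0.0387), a call lost in 3 of the 4 fits that left out 1 library (adjusted p up to 0.269).

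The 2 ELIPs, which protect greening plastids from excess light, differed in size of change. ELIP2 was at 277 and 269 CPM in phyB and at 48.3 and 48.5 in phyAB, against 109 in both WT red libraries, a difference of -2.49 ± 0.04. ELIP1 was at 158 and 157 CPM in phyB and at 78.5 and 82.7 in phyAB, against 68.0 and 68.2 in WT red, a difference of -0.97 ± 0.04. In phyAB, ELIP1 therefore stayed above WT red while ELIP2 was below it.

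**Figure D2:**
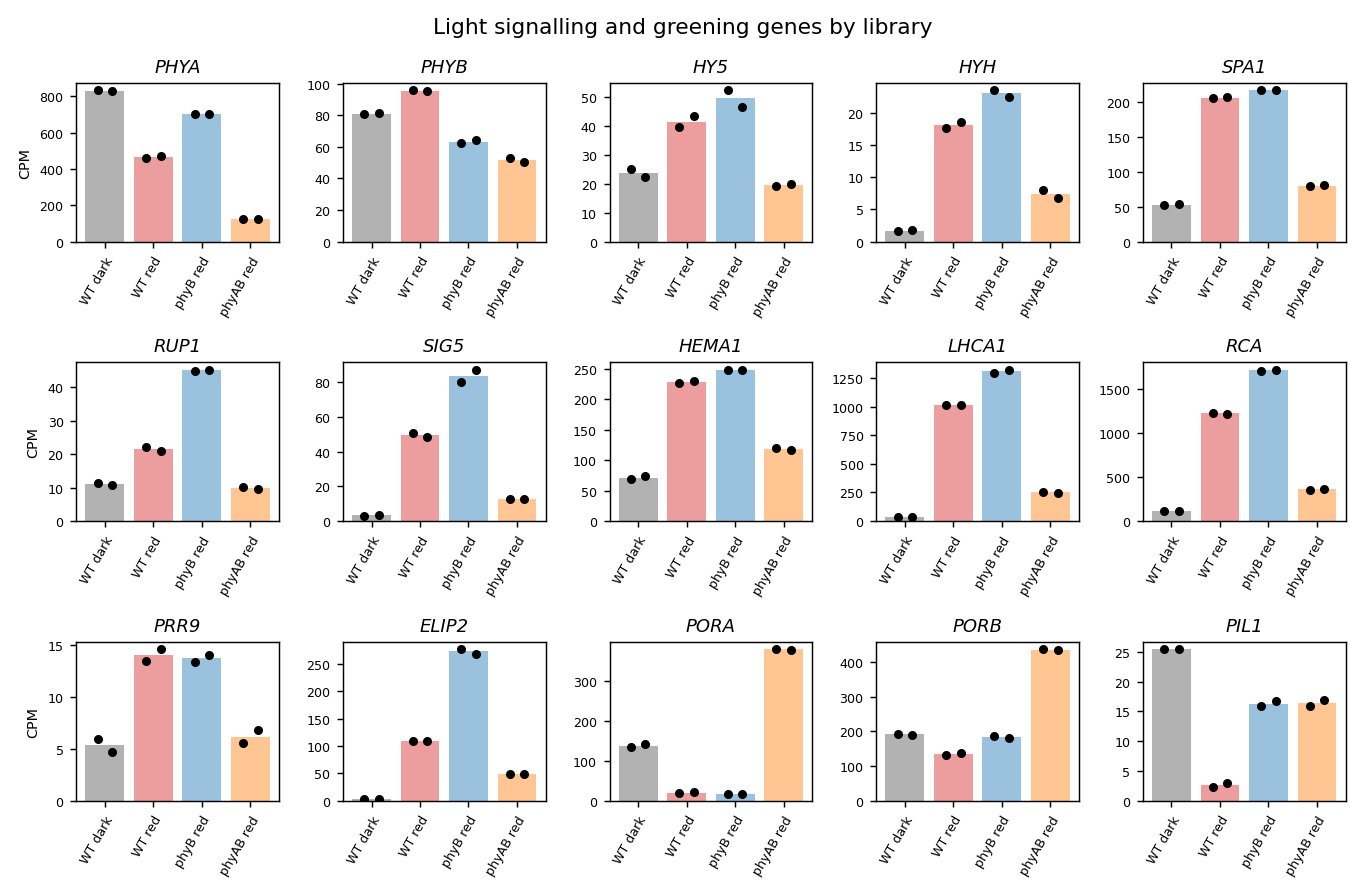
Bars give the mean CPM of the 2 libraries in a group and dots the libraries themselves, on an axis that starts at 0 for each gene. In phyAB the greening genes (SIG5, HEMA1, LHCA1, RCA, ELIP2) stand between WT dark and phyB, PORA and PORB stand above all other groups (380 CPM for PORA against 134 to 141 in WT dark), and PIL1 is at the level of phyB (15.9 to 16.9 CPM).

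The 250 bases before the annotated start of 5 genes are printed as examples picked by hand, with 3 falling genes first and 2 rising genes after them. The fall of ELIP1, at 1.96-fold, was under the 2-fold limit. They were read 5′ to 3′ on the strand of the gene from the RefSeq assembly TAIR10.1, whose nuclear chromosomes have the lengths of TAIR10. Capitals mark the G-box CACGTG, the I-box core GATAAG and the evening element AAATATCT, the last 2 searched on both strands (CTTATC and AGATATTT are their reverse complements). LHCA1 lies at chr3:20341177-20341426 on the minus strand, RCA at chr2:16573693-16573942 (minus), ELIP1 at chr3:8085670-8085919 (minus), PORA at chr5:21992815-21993064 (minus) and OLEO1, an oil-body protein of seeds, at chr4:12900180-12900429 (plus).
LHCA1: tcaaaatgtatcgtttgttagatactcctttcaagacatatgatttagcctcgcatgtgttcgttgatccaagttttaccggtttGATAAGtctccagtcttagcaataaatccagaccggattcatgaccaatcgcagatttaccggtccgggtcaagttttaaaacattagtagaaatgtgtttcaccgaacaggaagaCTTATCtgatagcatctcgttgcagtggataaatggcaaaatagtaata
RCA: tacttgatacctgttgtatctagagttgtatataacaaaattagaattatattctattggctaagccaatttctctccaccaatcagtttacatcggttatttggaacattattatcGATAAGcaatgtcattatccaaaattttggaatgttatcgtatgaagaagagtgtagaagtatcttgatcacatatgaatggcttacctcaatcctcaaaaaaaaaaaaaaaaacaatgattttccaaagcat
ELIP1: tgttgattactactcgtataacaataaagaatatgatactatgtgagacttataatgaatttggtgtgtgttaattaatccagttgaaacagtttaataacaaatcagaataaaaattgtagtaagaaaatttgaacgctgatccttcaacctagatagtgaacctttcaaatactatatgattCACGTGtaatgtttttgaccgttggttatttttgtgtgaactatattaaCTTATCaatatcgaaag
PORA: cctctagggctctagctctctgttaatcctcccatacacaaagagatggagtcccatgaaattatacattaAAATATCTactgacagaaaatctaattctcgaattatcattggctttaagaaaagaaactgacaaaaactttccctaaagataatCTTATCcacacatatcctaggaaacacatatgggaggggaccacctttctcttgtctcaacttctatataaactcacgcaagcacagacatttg
OLEO1: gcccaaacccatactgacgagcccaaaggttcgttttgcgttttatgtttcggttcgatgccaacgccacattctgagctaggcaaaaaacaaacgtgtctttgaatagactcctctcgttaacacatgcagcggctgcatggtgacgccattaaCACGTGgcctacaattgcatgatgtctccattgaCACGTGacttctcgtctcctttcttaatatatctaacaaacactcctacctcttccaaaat

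LHCA1 held 2 GATAAG cores, at 165 and 49 bases before the start, and RCA held 1 at 133 bases. ELIP1 held a G-box at 66 bases and a GATAAG core at 17. PORA, which was higher in phyAB, also held a GATAAG core, at 94 bases, and an evening element at 179, and OLEO1 held 2 G-boxes, at 95 and 61 bases. In windows from 250 bases before to 50 after the start, GATAAG was found in 18 of 32 photosystem and Rubisco genes (56.2%), in 25.2% of the genes at least 2-fold lower in phyAB, in 12.0% of those at least 2-fold higher and in 14.8% of 20499 tested genes. The share among genes induced by red light in wild type was 20.2%. CACGTG stood in 12 of the 32 photosystem and Rubisco genes (37.5%). It stood in 12.4% of the lower and 11.8% of the higher genes against 8.82% of all. For AAATATCT the shares were 3.12% of the photosystem and Rubisco genes, 7.37% of the lower and 6.94% of the higher genes against 5.81%. Among the 23 antenna and ELIP genes GATAAG was found in 30.4%, CACGTG in 26.1% and AAATATCT in 4.35%. These are matches of letters and do not show that a factor bound there.

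Chlorophyll synthesis genes were mostly lower, and the 2 exceptions serve its light-requiring step. Of 25 genes, 19 fell in phyAB (8 by 2-fold or more), 2 rose (4 with upper-quartile scaling) and 4 were not called, with a median of -0.72. HEMA1, the glutamyl-tRNA reductase that starts the pathway, was at 249 and 248 CPM in phyB and at 120 and 117 in phyAB (-1.06 ± 0.03), and CHLM, a methyltransferase of the magnesium branch, was lower by 1.39 ± 0.04. GUN4, which assists magnesium chelatase, was at 134 and 129 CPM in phyB, 50.7 and 53.8 in phyAB and 10.6 to 10.7 in WT dark. The 2 genes that were higher, PORA and PORB, both encode protochlorophyllide oxidoreductases, the light-driven enzymes that etiolated seedlings hold ready.

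PORA was at 16.8 and 17.2 CPM in phyB, beside 19.7 ± 2.09 (SD, n = 2) in WT red, and at 380 in both phyAB libraries. That is 22.4-fold higher (4.48 ± 0.04, adjusted p = 3.24e-122) and also above the 134 and 141 CPM of WT dark. PORB was at 186 and 182 CPM in phyB, 438 and 435 in phyAB, and 190 to 193 in WT dark (1.25 ± 0.03). For both genes the phyAB libraries lay above all other 6. PORC, the third oxidoreductase, was at 31.6 and 31.1 CPM in phyB and at 28.3 and 28.1 in phyAB and was not called (adjusted p = 0.074).

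The 6 sigma factors, nuclear-encoded subunits that guide the plastid RNA polymerase, were all lower, with a median of -1.19. SIG5 led them: 80.5 and 87.3 CPM in phyB against 12.6 and 12.8 in phyAB and 2.85 to 3.65 in WT dark (-2.73 ± 0.07, 6.64-fold). Of 84 tested transcripts encoded in the plastid itself, 36 were lower and 7 higher (51.2% called, beside 50.2% of all tested genes), with a median of -0.31. Plastid transcripts mostly lack long poly(A) tails and are poorly captured by oligo(dT) beads.

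Regulators of light signalling were lower in phyAB on both sides of the pathway. Among 11 activators of photomorphogenesis, 8 were lower and 2 higher. HY5, the bZIP factor at the centre of greening, was at 52.5 and 46.8 CPM in phyB, 19.1 and 19.9 in phyAB and 25.2 and 22.5 in WT dark, a difference of -1.34 ± 0.07 (adjusted p = 2.08e-37). In phyAB it was thus no higher than in the dark wild type. Its homolog HYH was at 23.6 and 22.6 CPM in phyB and at 7.95 and 6.83 in phyAB, still above the 1.65 and 1.77 of WT dark (-1.63 ± 0.11). GLK2, a factor for chloroplast genes, was lower by 1.14 ± 0.06, and BBX22, a B-box partner of HY5, by 1.18 ± 0.05.

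BBX23, another B-box activator, went the other way. It had 2 reads in the phyB libraries together and 200 in those of phyAB, a ratio of 99.3 (95% counting interval 27.1 to 826). Its level in phyAB, 4.70 and 5.66 CPM, was near the 5.61 and 7.52 of WT dark, while WT red had 0.155 and 0.188.

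Among 8 repressors of photomorphogenesis, 7 were lower, 4 of them at least 2-fold, with a median of -1.05. SPA1, a partner of COP1, was at 216 CPM in both phyB libraries and at 79.5 and 80.5 in phyAB, against 52.3 and 52.9 in WT dark (-1.43 ± 0.03). RUP1 and RUP2, which switch off the UV-B receptor, were lower by 2.18 ± 0.09 and 1.92 ± 0.10, and RUP1 was at 10.2 and 9.60 CPM in phyAB beside 11.4 and 10.9 in WT dark, a difference that was not called (adjusted p = 0.206). COP1 itself was lower by 0.46 ± 0.05, while DET1 was not called (-0.12 ± 0.08, adjusted p = 0.17). Of 10 other photoreceptor and photolyase genes 9 were lower, with PHR1, a DNA photolyase, at -1.38 ± 0.21 and the blue-light receptor gene PHOT2 at -1.12 ± 0.04. FKF1 and LKP2, counted there and in the clock list, were lower by 0.25 ± 0.10 and 0.27 ± 0.07, and the FKF1 call was lost in 3 of 4 fits without 1 library (adjusted p up to 0.358).

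**Figure D3:**
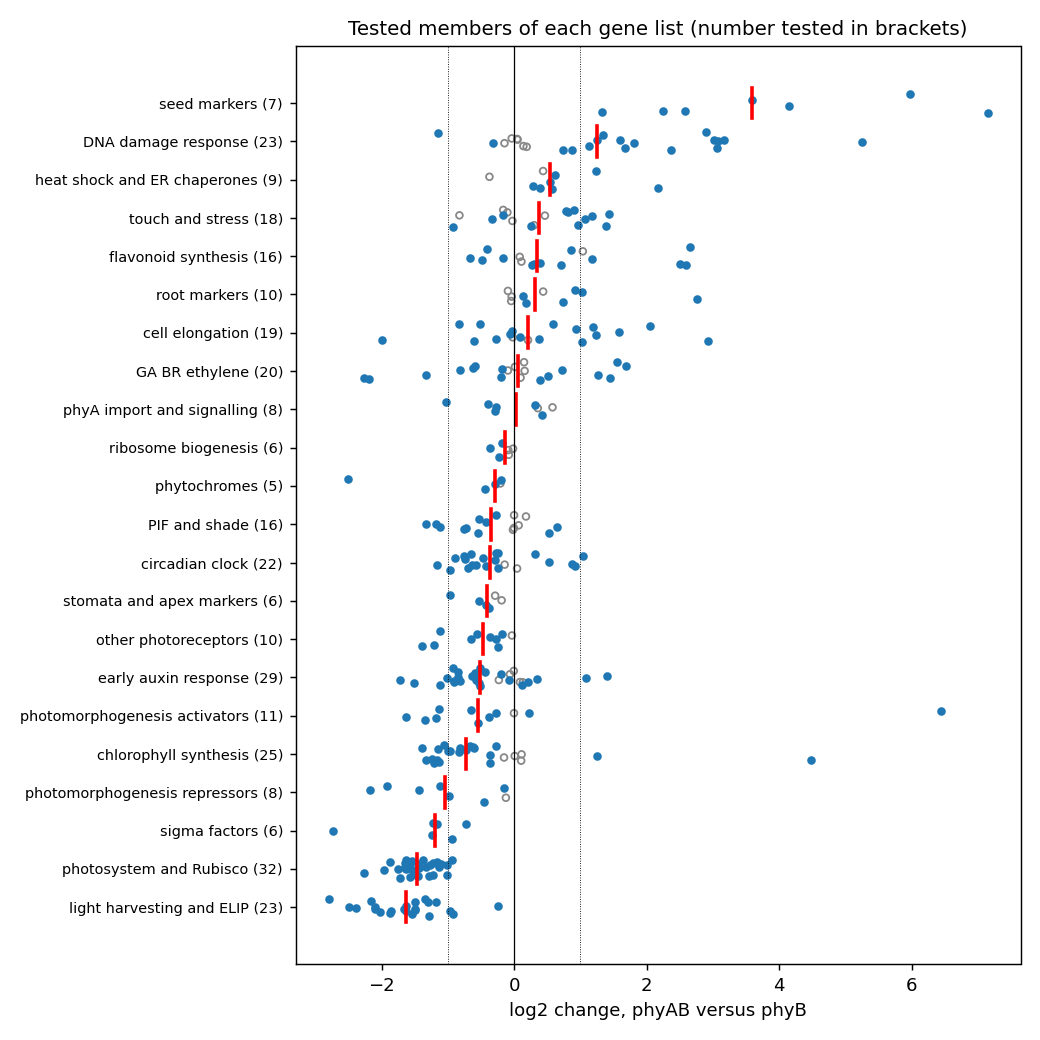
Each point is the log2 change from phyB to phyAB of one tested list member, filled where called at an adjusted p below 0.05, with the list median as a red bar and dotted lines at 2-fold. The photosynthetic lists lie wholly below 0 (medians -1.63 and -1.47), the 7 seed genes wholly above it (median 3.59), and cell elongation and hormone lists spread to both sides. Of the seed genes, CRC, OLEO1 and EM1 passed the read filter only through phyAB.

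PIF and shade genes did not move as one. Of 16, 9 were lower, 2 higher and 5 not called. PIF4 and PIF5, growth-promoting bHLH factors that phytochromes target for removal, were at 84.0 and 78.3, and 73.3 and 82.9 CPM in phyB, and at 37.7 and 36.6, and 30.3 and 32.6 in phyAB (-1.12 ± 0.05 and -1.33 ± 0.06). PIF3 was higher by 0.65 ± 0.06 and lies 4 loci from PHYA.

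PIL1, a shade-induced relative of the PIFs that red light represses in wild type, was at 15.9 and 16.7 CPM in phyB and at 15.9 and 16.9 in phyAB. The groups overlapped and the change was -0.0002 ± 0.10 (adjusted p = 0.999). Both mutants lay between WT dark (25.4 and 25.4) and WT red (2.23 and 2.88). HFR1, an inhibitor of PIFs, was lower by 0.73 ± 0.03, with 142 and 136 CPM in phyAB against 183 to 188 in the wild-type groups, and the shade gene ATHB2 was not called (-0.02 ± 0.08, adjusted p = 0.869).

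Clock genes were mostly lower by less than 2-fold: 15 of 22 fell, 5 rose and 1 in each direction passed 2-fold. PRR9, a light-induced repressor of the morning loop, was at 13.4 and 14 CPM in phyB and at 5.55 and 6.77 in phyAB, near the 5.96 and 4.72 of WT dark (-1.17 ± 0.13). CCA1 was higher by 0.32 ± 0.05 and LHY, its partner in the morning loop, by 0.88 ± 0.05. RVE2, a related MYB factor, was at 78.0 and 76.7 CPM in phyB and 159 and 157 in phyAB (1.03 ± 0.04).

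Growth and hormone genes went in both directions. Of 29 tested early auxin genes, 19 were lower and 5 higher (median -0.52; 3 higher by DESeq2 and without phyAB replicate 2). All 6 genes of the SAUR19 to SAUR24 cluster, which promote cell expansion, were lower by 0.64 to 0.93; their copies are near-identical. SAUR14 was at 44.0 and 42.2 CPM in phyB and 12.0 and 14.2 in phyAB (-1.72 ± 0.08), whereas GH3.3, an auxin-conjugating enzyme, was at 9.79 and 9.84 in phyB and 26.8 and 25.0 in phyAB (1.4 ± 0.10).

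In the list of 19 elongation genes phyAB showed 10 rises and 7 falls. XTH19, a cell-wall remodelling enzyme, was at 81.3 and 82.1 CPM in phyB and at 338 and 339 in phyAB, above the 214 and 221 of WT dark (2.05 ± 0.03). The expansin genes split: EXPA2 was higher by 2.92 ± 0.23 and EXPA11 by 1.58 ± 0.05, while EXPA1, a light-induced expansin, was at 260 and 264 CPM in phyB and 65.0 and 67.2 in phyAB (-1.99 ± 0.04). For EXPA2, WT red lay between the mutants, at 3.73 and 3.38 CPM against 1.06 and 0.809 in phyB and 7.41 and 6.48 in phyAB. Among 20 genes of gibberellin, ethylene and brassinosteroid metabolism and action, phyAB showed 7 rises and 8 falls. GA2OX1, a gibberellin-inactivating enzyme, was lower at 4.2 and 4.06 CPM against 19.1 and 18.6 (-2.18 ± 0.13), and ACS5, an ethylene synthesis enzyme, was higher at 19.7 and 21.9 CPM against 6.55 and 7.46 (1.55 ± 0.11). HLS1, needed for the apical hook of dark seedlings, was higher by 1.26 ± 0.14, at 11.2 and 11.4 CPM beside 12.3 and 13.2 in WT dark.

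Flavonoid genes went in both directions. Of 16 tested genes, 9 were higher and 4 lower, the latter being CHS, CHIL, F3H and the glycosyltransferase gene UGT78D2. CHS, the entry enzyme, was at 122 and 127 CPM in phyB, 112 and 111 in phyAB and 2.58 to 3.06 in WT dark, so its light-induced level in phyAB was lower by only 0.17 ± 0.04 (adjusted p = 6.44e-05). DFR and LDOX, enzymes of anthocyanin synthesis, were higher from a low level: DFR had 0.312 and 0.270 CPM in phyB and 1.67 and 1.89 in phyAB (2.59 ± 0.47), and LDOX 0.810 and 0.809 against 4.88 and 4.36 (2.51 ± 0.29). The anthocyanin regulator MYB75 was at 1.81 and 0.539 CPM in phyB and 7.32 and 6.24 in phyAB (2.65 ± 0.25). WT red lay between the mutants for DFR (0.673 and 0.815 CPM), LDOX (2.95 and 1.755) and MYB75 (3.94 and 3.82).

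Stress lists held more rises than falls, where 26.1% of all tested genes were higher and 24.1% lower. Of 9 tested heat-shock and ER chaperone genes 7 were higher, BIP3 most, with 2.43 and 2.97 CPM in phyB and 13.6 and 10.8 in phyAB (2.17 ± 0.16). For BIP3 the phyB libraries were the ones apart, since WT dark and WT red held 10.4 to 15.7 CPM. Of 18 touch, cold and jasmonate genes 9 were higher and 3 lower (1 lower with the assumed CV of 0.1), with the defence regulator WRKY33 at 45.7 and 42.3 CPM in phyB and 96.7 and 103 in phyAB (1.18 ± 0.05). Of 6 ribosome biogenesis genes 3 were lower, by 0.18 to 0.36, and none was higher, a called share of 50.0% beside 50.2% of all tested genes.

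Seed storage transcripts gave the largest rises of any list. All 7 tested members of 9 were at least 2-fold higher in phyAB, with a median of 3.59. CRC, OLEO1 and EM1 were at most at 0.466 CPM in any library outside phyAB. They passed the read filter only through phyAB, so that they would be higher there was fixed in advance. The count and the median of the list are therefore a description only. CRC, a cruciferin storage globulin, was at 0 and 0.315 CPM in phyB and at 27.3 and 26.3 in phyAB (7.15 ± 0.25). CRA1, another cruciferin, was at 0.187 and 0.450 CPM against 21.4 and 22.1 (5.98 ± 0.24). OLEO1 was at 0.249 and 0.0449 CPM in phyB and at 2.03 and 2.94 in phyAB (4.16 ± 0.53).

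The albumin gene SESA5, named for its size of change rather than as a list member, had 2 reads in phyB and 173 in phyAB. It was at most at 0.401 CPM in any library outside phyAB and likewise passed the read filter only through phyAB. That SESA5 would be higher there was thus fixed in advance, and its reads are a description only. Summed over the 9 markers, the level was 10.5 and 9.57 CPM in phyB, 84.7 and 83.5 in phyAB, and 8.21 to 12.7 in the wild-type groups, with 1 marker at 0 reads in phyB and none in phyAB. The summed level was thus high in both phyAB libraries and in no other. Whether seeds that had not germinated were among the phyAB seedlings was not tested.

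Root markers were higher for 6 of 10 and lower for none (26.1% and 24.1% over all tested genes), with summed levels of 307 and 296 CPM in phyB and 356 and 362 in phyAB. RHD6, a root-hair regulator, was at 0.935 and 0.989 CPM in phyB and at 6.32 and 6.89 in phyAB, below the 10.4 and 8.75 of WT dark (2.76 ± 0.23). WT red, at 3.99 and 3.51 CPM, lay between the mutants. The stomatal and shoot apex markers were lower for 4 of 6 tested, FAMA, SPCH, TMM and STM, by 0.38 to 0.97, and summed to 28.8 and 28.2 CPM in phyB and 21.7 and 21.6 in phyAB. None of these 4 was called by DESeq2, and leaving out 1 library left 1 or 2 of them called. The part of tissue make-up in the falls of greening genes was not tested.

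Several of the strongest rises lay outside the 21 lists and, in wild type, hardly responded to light. QRT1, a pectin-modifying enzyme known from pollen separation, was at 0.436 and 0.764 CPM in phyB, 0.601 to 0.966 in the wild-type groups and 40.4 and 41.5 in phyAB (6.02 ± 0.17, 64.7-fold). SMR7, an inhibitor of cyclin-dependent kinases that DNA damage induces, was at 0.624 and 0.989 CPM in phyB and 33.8 and 30.0 in phyAB (5.25 ± 0.17), and PARP2, a poly(ADP-ribose) polymerase of DNA repair, at 4.80 and 5.03 against 45 and 43.9 (3.17 ± 0.11). AT2G18193, an ATPase-like protein, was at about 10 CPM in both phyB libraries and at 174 and 176 in phyAB (4.12 ± 0.06). Red light changed none of these 4 by 2-fold in wild type, and of them only PARP2 had a called response (0.54, adjusted p = 0.00725).

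GRF7, a growth-regulating factor, rose too but with a light response. It was at 0.748 and 0.584 CPM in phyB, 23.0 and 23.5 in phyAB, and 23.1 and 20.1 in WT dark (5.14 ± 0.18).

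A list of 24 DNA damage and repair genes was drawn up after SMR7 and PARP2 had been seen, so its counts only describe these libraries. Of 23 tested, 15 were higher, 13 of them at least 2-fold, 2 were lower (KU70 and RNR2A, but 1 by DESeq2, with upper-quartile scaling, with the assumed CV of 0.1, without phyAB replicate 1 and without phyB replicate 2) and the median was 1.25, beside 26.1% called higher over all genes. TSO2, a ribonucleotide reductase subunit, was at 30.8 and 33.5 CPM in phyB and 270 and 276 in phyAB, against 32.8 to 36.2 in the wild-type groups (3.08 ± 0.04). BRCA1 and XRI1, genes of repair by recombination, were higher by 3.06 ± 0.13 and 3.02 ± 0.09.

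Genes that sense and signal damage were not called: SOG1, the regulator of the plant response, stood at 0.05 ± 0.08 (adjusted p = 0.677), ATM at 0.14 ± 0.07 (0.0871) and ATR at -0.15 ± 0.15 (0.445). KU70, a subunit of the Ku complex that binds broken DNA ends, was at 25.6 and 27.1 CPM in phyB, 26.3 to 28.0 in the wild-type groups and 12.7 and 10.9 in phyAB (-1.15 ± 0.09, adjusted p = 1.38e-23). Its partner KU80 was not called (-0.04 ± 0.09, adjusted p = 0.76). The sources used here do not say whether the phyAB line carries changes beside those at PHYA and PHYB.

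**Figure D4:**
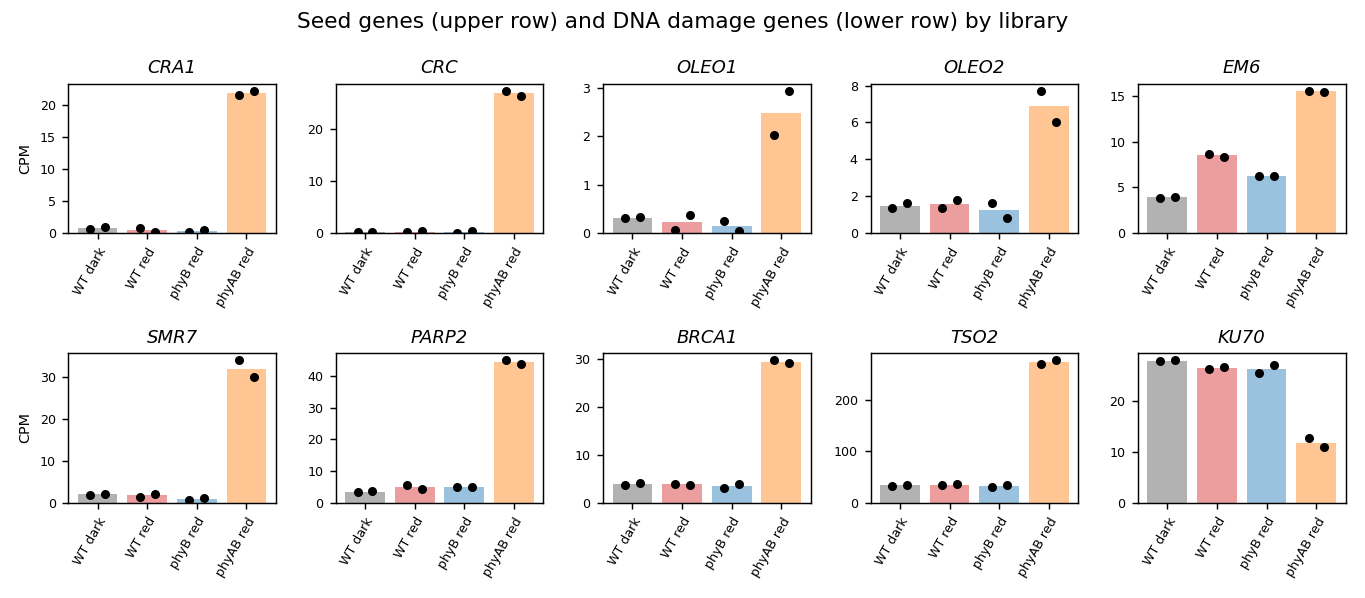
Bars give the mean CPM of the 2 libraries in a group and dots the libraries, for 5 seed genes and 5 DNA damage genes. All but KU70 are highest in phyAB, such as SMR7 at 30.0 and 33.8 CPM, while KU70 itself is lowest there at 10.9 and 12.7 CPM.

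The steepest falls among genes of at least 20 CPM were mostly light-induced. MSRB6, a methionine sulfoxide reductase, was at 146 and 155 CPM in phyB, 18.9 and 14.7 in phyAB and 1.72 to 1.90 in WT dark (-3.14 ± 0.06). CP12-2, a regulator of the Calvin cycle, was lower by 2.65 ± 0.08, and FADA, a plastid fatty acid desaturase, by 2.52 ± 0.10. An exception was AT2G01008, at 25.1 and 25.8 CPM in phyB but 1.76 and 2.12 in phyAB and 1.88 to 3.70 in the wild type (-3.73 ± 0.15).

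At lower levels, AT3G05950, a germin-like cupin protein, had 447 reads in phyB and 3 in phyAB, a ratio of 150 (interval 51.0 to 731). CIPK20, a light-induced protein kinase, was at 4.49 and 5.89 CPM in phyB and 0.271 and 0.236 in phyAB, and listed at 0 in WT dark. AT3G55900, an F-box gene, was the reverse: 0 reads in phyB and 195 in phyAB, at least 64.5-fold higher with phyB set at 3 reads over both libraries. Since WT dark and WT red held 5.08 to 5.51 CPM of it, close to the 4.61 and 5.48 of phyAB, it was phyB that stood apart.

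Some genes moved against the wild-type light response. PP2-B13, which light induced in wild type, was at 0.998 and 0.539 CPM in phyB and 7.36 and 8.19 in phyAB, above the 1.82 to 2.59 of WT red (3.39 ± 0.26). THA1, a threonine aldolase that light repressed, was at 14.3 and 15.5 CPM in phyB and at 2.66 and 3.12 in phyAB, below WT red at 6.58 and 7.52 (-2.38 ± 0.14). PI, a floral homeotic gene, and ACS4 were also repressed in wild type and lower in phyAB, both from under 2 CPM. For these it was phyB that stood apart, higher than WT red by 2.99 and 3.23. Between phyAB and WT red neither was called (adjusted p = 0.779 and 0.364).

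Genes beside the mutated loci were checked because a mutant line can carry linked differences. Among the 10 loci on each side of PHYA, 5 of 15 tested genes were called and none at 2-fold. Around PHYB, 6 of 14 were called and 1 at 2-fold: TPS11, a trehalose phosphate synthase-like gene, at 336 and 350 CPM in phyB and 161 and 171 in phyAB (-1.06 ± 0.03), which lies 10 loci away. Of all tested genes 50.2% were called, so these shares were not above the background.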

How the data were processed

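RNA of whole seedlings was selected on oligo(dT) beads and sequenced on an Illumina instrument, per the labels' protocols. For each library the authors deposited a read count and an RPKM value for 27416 gene models. The build was TAIR10 in the submitters' processing notes. The aligner, the counter and the strand setting were not given in the sources used here, and reads of overlapping or near-identical genes cannot be told apart. The deposited RPKM values equal the deposited counts divided by model length and library total, and the counts were analysed.

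Counts were tested with edgeR 4.0.16 in R 4.3.3: TMM scaling, filterByExpr (minimum count 10), and a robust quasi-likelihood fit to all 8 libraries with 1 coefficient per group. Tests were two-sided with Benjamini-Hochberg adjustment over 20716 genes, and genes were called at 0.05. CPM values are per library. Names came from RefSeq's TAIR10.1 table, which held 26719 models. Alternatives were DESeq2 1.42.0, other scalings and filters, fewer libraries and an assumed spread. The fit was tested on simulated counts.

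Members, the 21 gene lists and the rules were chosen with earlier results of these data known, and the DNA damage list was added after its values were seen; 1 gene of it is not reported here. Named genes were 13 fixed ones, the largest changes at 2 expression limits, the largest and smallest changes in each list, and genes that moved against the light response. Other list members are named to complete a list. No set test was run.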

Additional observations from a re-analysis of the deposited data

How the results depend on the processing

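With the libraries of each mutant summed and an assumed CV of 0.1, 2050 genes were higher and 1906 lower, and 139 red-induced genes were higher and 39 red-repressed genes lower. This setting changed both the summing and the spread, and which of them removed calls was not tested. Counts past 2-fold, at 990 and 900, stayed within 1.5 times. Elsewhere every count over all genes stayed within 1.5 times: DESeq2 gave 4107 and 4011, and upper-quartile scaling 5993 and 4443 (57.4% higher against 52.0%). Leaving out each library gave 4603 to 4898 higher, 4237 to 4494 lower, 990 to 1047 at least 2-fold higher and 907 to 942 at least 2-fold lower. A replicate block gave 5395 and 5018. Same-numbered phyB and phyAB libraries did not deviate together (r = -0.008 over 15272 genes). Replicates differed by little more than counting error, so this check could not show whether the libraries were prepared in pairs. Of the named genes, 139 were followed singly under these alternatives, and no called gene among them changed sign. Other named genes, such as PIF3 and COP1, were not followed singly. Of the 139 genes, 20 lost their call under the assumed CV, PHYB (adjusted p = 0.405), CHS (0.692), CCA1 (0.357), PHYE (0.158) and FHY1 (0.187) among them, and DESeq2 lost 6. Upper-quartile scaling lost 3 and added 2. Among lists, the assumed CV left 4 photomorphogenesis activators lower (of 8) and 1 higher (of 2), 1 PIF and shade gene higher (of 2), 9 clock genes lower (of 15) and 3 higher (of 5), 2 auxin genes higher (of 5), 3 elongation genes lower (of 7), 5 gibberellin, brassinosteroid and ethylene genes lower (of 8), 5 other photoreceptor genes lower (of 9), 5 flavonoid genes higher (of 9) and 1 lower (of 4), and 0 ribosome biogenesis or stomatal and apex genes lower. The cause was not tested. At these depths a gene under 0.136 to 0.188 CPM in a library cannot be told from one at 0.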

Other observations

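A few genes, picked after their values were seen, set phyB apart from the 3 other groups rather than phyAB. AT3G55910 lies next to AT3G55900 and behaved like it, with 0 and 0.135 CPM in phyB, 4.43 and 6.01 in phyAB and 5.20 to 5.71 in the wild-type groups. AT3G29633 and AT3G01345 were the reverse. AT3G29633 was at 6.73 and 7.87 CPM in phyB and below 0.11 in every other library, and AT3G01345 was at 12.7 and 14.9 CPM in phyB, 1.22 and 1.24 in phyAB and at most 0.570 in the wild type. DML1, a DNA glycosylase that removes DNA methylation, was at 72.7 and 73.8 CPM in phyB, 31.5 and 31.0 in phyAB and 7.57 to 9.84 in the wild type, so both mutants were above the wild type and phyB more so (-1.23 ± 0.06 for phyAB against phyB, adjusted p = 4.45e-40). For such genes the difference between the mutants cannot be assigned to the added loss of phyA from these libraries. No cause was tested.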
